A study of Arabidopsis thaliana with 4 samples.

Results

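The chloroplast of Arabidopsis thaliana carries its own small genome, and its transcripts were followed here in whole leaf and in leaf protoplasts. All rows of the deposited count table whose locus identifier starts with ATCG were taken, which gave 130 chloroplast loci of 24904 loci in all. The leaf libraries came from fully developed leaves of wild-type Col-0 plants, 6 weeks old, grown with 8 h of light and 16 h of dark. For the protoplasts, leaves of such plants had their lower epidermis pulled away with tape and were shaken for 2 h in cellulase, macerozyme and 0.6 M mannitol, and the released cells were filtered and washed. Leaf was not put through these steps, so the effects of peeling, enzymes, mannitol and time cannot be told apart. There were 2 libraries a group, labelled as biological replicates. No label ties them to separate plants or days, so the p-values speak only of variation among these libraries, and that variation may be technical. Poly(A) RNA was selected before library construction.

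The plastid genome encodes core subunits of the photosynthetic complexes, the large subunit of Rubisco, subunits of a plastid RNA polymerase, and the RNAs and part of the proteins of the plastid ribosome. Its genes are transcribed by the plastid-encoded polymerase, which works with nuclear-encoded sigma factors, and by nuclear-encoded polymerases of the phage type, and many are read together as one transcription unit. Plastid transcripts do not carry the long stable poly(A) tails of nuclear mRNAs. Short A-rich tails in the plastid are known as marks of RNA decay, so a poly(A) library catches plastid RNA only in part, and counts there need not follow the amount of plastid RNA in the cell. A pair of inverted repeats holds the ribosomal RNA genes and several others in 2 copies each.

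Libraries held 42121436 and 43685947 counts for leaf and 48503141 and 39958035 for protoplasts. Markers of mesophyll, the main photosynthetic tissue, were abundant in both groups: RBCS1A, a small subunit of Rubisco, stood at 11336 ± 59.4 CPM (counts scaled to a common library size, mean ± SD, n = 2) in leaf and 16309 ± 258 in protoplasts. All 4 mesophyll markers were called higher in protoplasts, but with scaling by library size only 1 was called higher and 3 lower. Each pair of markers for epidermis, guard cells, companion cells and phloem parenchyma fell; KCS6, an enzyme of epidermal wax synthesis, went from 350.5 ± 12.1 to 0.633 ± 0.327 CPM. In bulk RNA, fewer cells of a type and less RNA per cell cannot be told apart, and the part of the lost cell types in the plastid results was not tested.

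The files and the reference pair few plastid loci with a gene name, so loci are given by identifier. They were grouped into complexes by general knowledge of the standard plastid locus numbering. For 6 loci the reference notes name a product. For 5 of these it fits the group; the sixth, ATCG00430, is noted as photosystem II reaction center protein G and stands here with the NDH subunits, since that name is an older one for an NDH subunit.

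Plastid loci took a larger share of the counts in both protoplast libraries than in either leaf library. The share was 3.94% and 3.51% in leaf and 4.5% and 5.95% in protoplasts. Protoplast replicate 2 stood apart from the rest, and the groups did not overlap. The means were 3.72 ± 0.30% and 5.22 ± 1.03% (SD, n = 2), a difference of 1.50 percentage points, for which an exact two-sided permutation test gave p = 0.33, the smallest that 2 libraries against 2 allow. The difference was 0.771 points without protoplast replicate 2 and 0.989 points when 1 copy of each duplicated pair was counted.

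Most plastid counts lay on ribosomal RNA when both copies of each duplicated pair were counted. With 1 copy of each pair, ribosomal RNA held 46.8% and 51.9% of the plastid total for the leaf libraries. For the protoplast libraries it held 47.8% and 50.0%, so it was then not the majority in every library. The values that follow count both copies. The 8 ribosomal RNA loci took 2.41% and 2.31% of each leaf library and 2.78% and 3.81% of each protoplast library. The 87 protein-coding loci took 1.50% and 1.18% in leaf and 1.71% and 2.14% in protoplasts. Summed, the 35 transfer RNA loci went the other way, at 0.0306% and 0.0251% of the leaf libraries and 0.00954% and 0.0118% of the protoplast libraries. ATCG00400 weighed most in this sum, falling from 7865 and 7032 reads per leaf library to 1381 and 1387 per protoplast library. The fall was not shared by the whole class: with scaling by library size, 6 of the 19 tested were called higher and 6 lower. Within the plastid counts, ribosomal RNA made up 61.2% and 65.7% in leaf and 61.8% and 63.9% in protoplasts, so the groups overlapped there, whereas transfer RNA loci made up 0.778% and 0.714% in leaf and 0.212% and 0.198% in protoplasts.

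**Figure D1:**
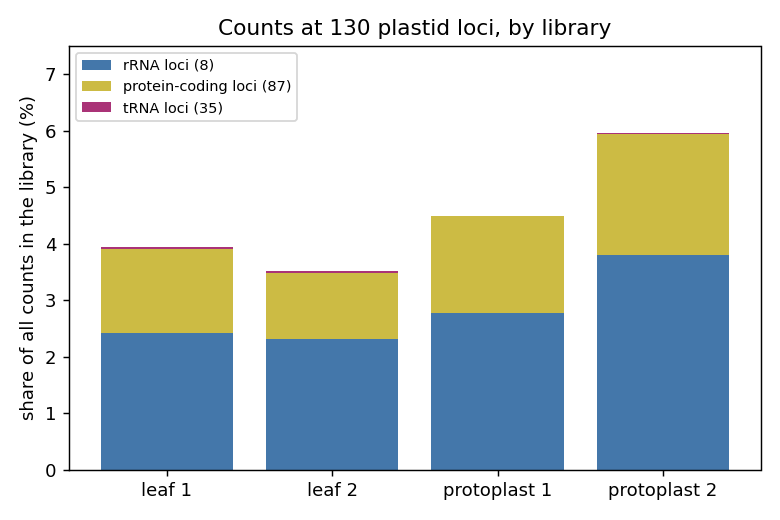
Share of all counts in each library (%, y axis) that lay on the 130 plastid loci, stacked by ribosomal RNA, protein-coding and transfer RNA loci, with 1 bar per library. The protoplast bars reach 4.5% and 5.95%, above the leaf bars at 3.94% and 3.51%.

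Of the 130 loci, 114 were tested. The other 16 all belong to the transfer RNA group and had at most 16 counts in any library. TMM scaling equalises the bulk of the loci between libraries. With it, 94 of the 114 were called higher in protoplasts and 6 lower, while 14 were not called (edgeR quasi-likelihood test, adjusted p under 0.05). Relative to the plastid protein-coding counts 6 were called higher and 24 lower. The standard errors under that scaling were wide and drew on the spread of all tested loci. A locus not called there was thus not shown to keep level with the others. Calls with TMM were common in this comparison: 80.5% of all 20200 tested loci passed, 39.8% as higher and 40.7% as lower, against 82.5% of the plastid loci as higher. The plastid loci had a median log2 fold change of 1.17, where all tested loci had -0.04, and their quartiles were 0.76 and 1.45. At least 2-fold higher and called were 76 plastid loci, against 22.1% of all tested loci. The protoplast libraries lay above both leaf libraries for 97 loci and below for 6, and the groups overlapped for 11; across all tested loci protoplasts lay above for 43.9% and below for 46.4%, so the groups did not overlap for 90.3%, close to the 90.4% of the plastid loci.

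How far the plastid loci rose depended on the scaling, since TMM divided leaf counts by factors of 1.323 and 1.321 but protoplast counts by 0.764 and 0.749. With RLE factors 96 were called higher and 6 lower, with a median of 1.2 (all 20200 tested loci -0.01, with 8306 called higher and 7925 lower). Upper-quartile factors gave 86 and 8, with a median of 0.84 (all 20200 tested loci -0.37, with 6183 called higher and 11047 lower). With library size only, 59 were called higher and 12 lower, with a median of 0.36 (all loci -0.85; 91% of all tested loci called, 21.4% higher and 69.6% lower). Scaled to the summed counts of the plastid protein-coding loci, 6 were called higher and 24 lower, with a median of -0.16. All tested loci then had a median of -1.37, with 85.8% called, 14.1% higher and 71.6% lower. The sum includes the protein-coding locus under test, and ATCG00480 alone made up 21.4% to 23.8% of it in each library. The plastid loci had a higher median than all tested loci under each of these 5 scalings. A change of scaling moves all loci by nearly the same amount, so this was fixed once it held with TMM and is no further support. Of the TMM calls, 6 higher and 6 lower held under all 5. The other scalings moved loci down or, with RLE, only slightly up, so the lower calls were likely to hold and gain no support from this. DESeq2 called only 2 of the 6 lower loci, ATCG00400 and ATCG00650.

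**Figure D2:**
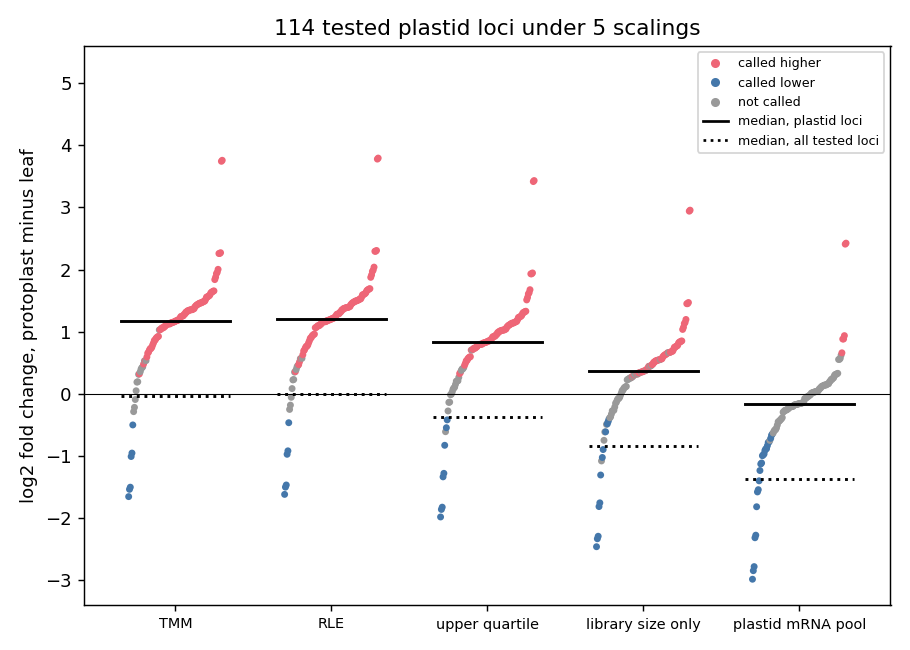
Log2 fold change of the 114 tested plastid loci, protoplast minus leaf (y axis), under 5 scalings (x axis), each point 1 locus coloured by its call. Solid lines mark the plastid median, which goes from 1.17 with TMM to 0.36 with library size only and -0.16 relative to the plastid protein-coding counts (plastid mRNA pool). Dotted lines mark the median of all tested loci. It lies lower each time by nearly the same amount, since a change of scaling moves all loci alike.

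The replicates differed in a shared way. Leaf replicate 1 exceeded leaf replicate 2 at 98 of the 114 loci, with a median ratio of 1.22, and protoplast replicate 2 exceeded protoplast replicate 1 at 104, with a median ratio of 1.29. Over all tested loci these ratios were 0.996 and 0.999. Plastid loci thus moved together between libraries of the same kind, and they are not independent readouts of the difference between groups.

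Photosystem II splits water and passes its electrons to the cytochrome b6f complex, and photosystem I lifts them to ferredoxin. Of the 14 tested photosystem II loci, 11 were called higher and 1 lower with TMM, with a median of 1.30, against 7 and 2 with library size only and 1 and 2 relative to the plastid protein-coding counts. ATCG00020 had the largest log2 fold change of the protein-coding loci. It stood at 37.1 and 35.8 CPM in leaf and at 129 and 164 in protoplasts, so the groups were far apart, the leaf libraries nearly equal and protoplast replicate 2 above replicate 1. Its log2 fold change was 2.00 ± 0.09 (SE; edgeR, adjusted p = 5.15e-10), and it was the only protein-coding locus called higher relative to the plastid protein-coding counts (0.66 ± 0.32, edgeR, adjusted p = 0.046).

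ATCG00220 had the most counts of the photosystem II group. Its values were 1913 and 1153 CPM in leaf and 2612 and 4376 in protoplasts. Both groups were widely spread here, though they did not overlap, and the log2 fold change was 1.19 ± 0.22 (edgeR, adjusted p = 0.000305). With library size only it was 0.38 and not called (edgeR, adjusted p = 0.0628), and relative to the plastid protein-coding counts it was -0.14 ± 0.30.

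ATCG00700 was the photosystem II locus that fell. The leaf libraries had 32 and 28 reads counted there and the protoplast libraries 2 and 10, few in every library and fewest in protoplast replicate 1. The log2 fold change was -1.54 ± 0.54 (edgeR, adjusted p = 0.0185). It was called lower under all 5 scalings, which the shifts of the scalings made likely. It was not called with DESeq2 (adjusted p = 0.105) or without protoplast replicate 1 (-0.67). The locus lies between ATCG00690 and ATCG00710 in number, which were called higher with TMM at 1.25 ± 0.39 and 1.04 ± 0.20.

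All 5 photosystem I loci were called higher with TMM, with a median of 1.06, but with library size only 2 were called higher and 1 lower. ATCG00350 had the most counts and the largest change of these, at 15.0 and 13.0 CPM in leaf and 39.4 and 44.2 in protoplasts. Replicates lay close together and the groups apart, and the log2 fold change was 1.57 ± 0.08 (edgeR, adjusted p = 1.86e-09), or 0.77 with library size only. ATCG00630 changed least, at 8.11 and 6.45 CPM in leaf and 8.34 and 9.89 in protoplasts. Leaf replicate 1 nearly met protoplast replicate 1 there, and the call at 0.32 ± 0.13 (edgeR, adjusted p = 0.0353) turned to -0.49 with library size only.

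The cytochrome b6f loci had a median of 1.38, and 5 of 6 were called higher with TMM, 3 with library size only and 0 relative to the plastid protein-coding counts, where 1 was called lower. ATCG00540 read 12.6 and 12.1 CPM in leaf and 32.7 and 36.8 in protoplasts. Its replicates agreed closely beside the gap between groups, and it rose by 1.49 ± 0.08 (edgeR, adjusted p = 1.46e-09; 0.68 with library size only). ATCG00210 had 1.53 and 0.901 CPM in leaf and 1.35 and 2.21 in protoplasts, so the groups overlapped and it was not called (0.53 ± 0.29).

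**Figure D3:**
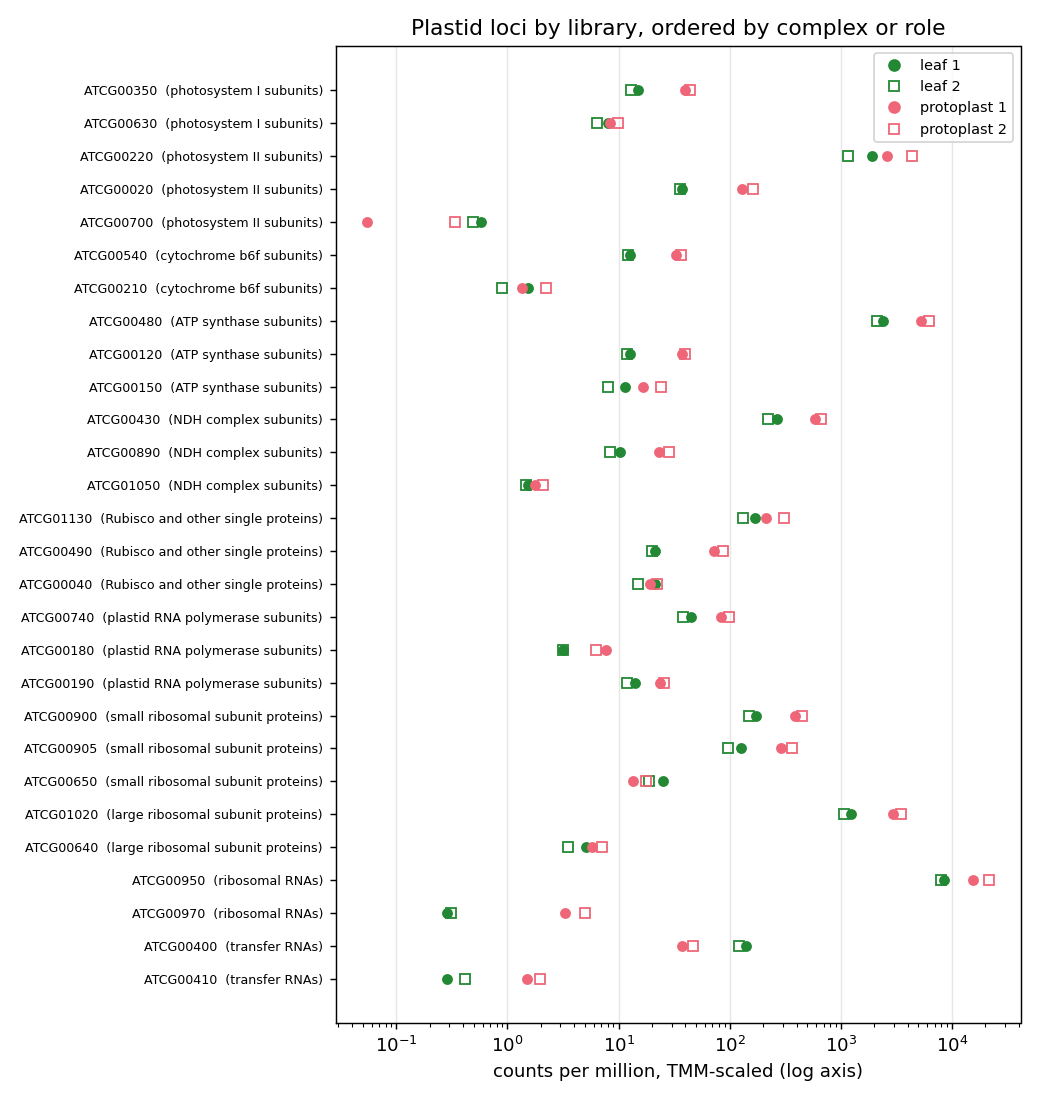
Level of the 28 loci chosen by group (y axis) in each library, in TMM-scaled CPM on a log axis, with circles for replicate 1 and squares for replicate 2. Protoplast points lie above leaf points for most loci, as for ATCG00020 at 129 and 164 against 37.1 and 35.8, and below for ATCG00400, ATCG00650 and ATCG00700; levels here are TMM-scaled, and with library size only the gap is narrower and ATCG00630, ATCG00040 and ATCG01050 are called lower in protoplasts.

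The plastid ATP synthase makes ATP from the proton gradient across the thylakoid membrane. All 6 loci were called higher with TMM and 5 with library size only, with a TMM median of 1.34, and 0 were called in either direction relative to the plastid protein-coding counts. ATCG00480 had the most counts of any protein-coding plastid locus, between 21.4% and 23.8% of those counts in each library. It stood at 2417 and 2113 CPM in leaf and 5327 and 6224 in protoplasts, with the groups well apart. The log2 fold change was 1.35 ± 0.08 (edgeR, adjusted p = 4.74e-09), or 0.54 with library size only and 0.02 relative to the plastid protein-coding counts. ATCG00470, its neighbour in the same transcription unit, rose by 1.33 ± 0.10. The largest change of the group was that of ATCG00120 at 1.64 ± 0.07 and the smallest that of ATCG00150 at 1.06 ± 0.17, which was not called with library size only (0.25).

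The NDH complex moves electrons around photosystem I. Of its 12 loci, 10 were called higher and 0 lower with TMM, with a median of 1.13, and with library size only 5 were called higher and 1 lower. ATCG00430 was at 269 and 223 CPM in leaf and 589 and 664 in protoplasts. It rose by 1.35 ± 0.08 (edgeR, adjusted p = 9.24e-09). ATCG01050 was at 1.54 and 1.46 CPM in leaf and 1.78 and 2.07 in protoplasts, a narrow gap that was not called with TMM (0.35 ± 0.19) and was called lower with library size only (-0.45).

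Rubisco fixes carbon dioxide, and its large subunit is made in the plastid. It was grouped with assembly factors and other single proteins, of which 13 of 14 were called higher with TMM and 6 with library size only, with a TMM median of 1.12. ATCG00490 rose most of these, from 21.2 and 19.8 CPM in leaf to 73.0 and 86.3 in protoplasts. The leaf libraries nearly matched and the protoplast libraries were well above, with a log2 fold change of 1.96 ± 0.08 (edgeR, adjusted p = 1.35e-10) and 1.15 with library size only. Relative to the plastid protein-coding counts it was 0.62 ± 0.32 and not called (edgeR, adjusted p = 0.0595). Of those counts ATCG00490 held 0.187% and 0.222% in leaf and 0.326% and 0.303% in protoplasts, so the groups did not overlap. ATCG01130, the one with the most counts, read 171 and 131 CPM in leaf and 213 and 307 in protoplasts. Its rise of 0.79 ± 0.14 (edgeR, adjusted p = 0.000249) became -0.02 with library size only. ATCG00040, at 21.2 and 15.0 CPM in leaf and 19.3 and 22.2 in protoplasts, overlapped between groups and was not called with TMM, and was called lower at -0.61 with library size only.

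ATCG00670, noted in the reference as the plastid-encoded ClpP protease subunit, rose by 1.11 ± 0.07 (edgeR, adjusted p = 7.47e-09), from 61.5 ± 6.3 to 132 ± 2.4 CPM (SD, n = 2). ATCG00530, noted as a CemA-like proton extrusion protein, rose by 1.14 ± 0.08 (edgeR, adjusted p = 2.02e-08).

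The 4 loci of the plastid RNA polymerase were all called higher with TMM, in a narrow range from 0.92 to 1.16, with 2 called with library size only and 0 relative to the plastid protein-coding counts. ATCG00740 stood at 45.3 and 38.0 CPM in leaf and 83.3 and 98.5 in protoplasts. The groups were apart, and it rose by 1.12 ± 0.09 (edgeR, adjusted p = 1.21e-07).

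Ribosomal protein loci followed the same pattern. Of 15 loci for the small subunit, 12 were called higher and 1 lower with TMM (8 and 1 with library size only; 0 and 5 relative to the plastid protein-coding counts), and of 11 for the large subunit 11 and 0 (7 and 0; 0 and 1). The TMM medians were 1.16 and 1.14. ATCG01020 had the most counts, at 1232 and 1060 CPM in leaf and 2954 and 3494 in protoplasts. The groups were widely separated, with a log2 fold change of 1.49 ± 0.08 (edgeR, adjusted p = 3.34e-09). ATCG01310, ribosomal protein L2 in the reference, rose by 1.40 ± 0.09, ATCG00750, protein S11, by 1.34 ± 0.12 and ATCG00660, protein L20, by 1.15 ± 0.13.

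The exception among the ribosomal proteins was ATCG00650 in the small subunit group. It had 25.1 and 18.6 CPM in leaf and 13.5 and 17.5 in protoplasts, with leaf replicate 2 just above protoplast replicate 2. It fell by 0.50 ± 0.14 on the log2 scale (edgeR, adjusted p = 0.0051). It was called lower under all 5 scalings, which the shifts of the scalings made likely. Without protoplast replicate 1 it was -0.33 and no longer called.

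**Figure D4:**
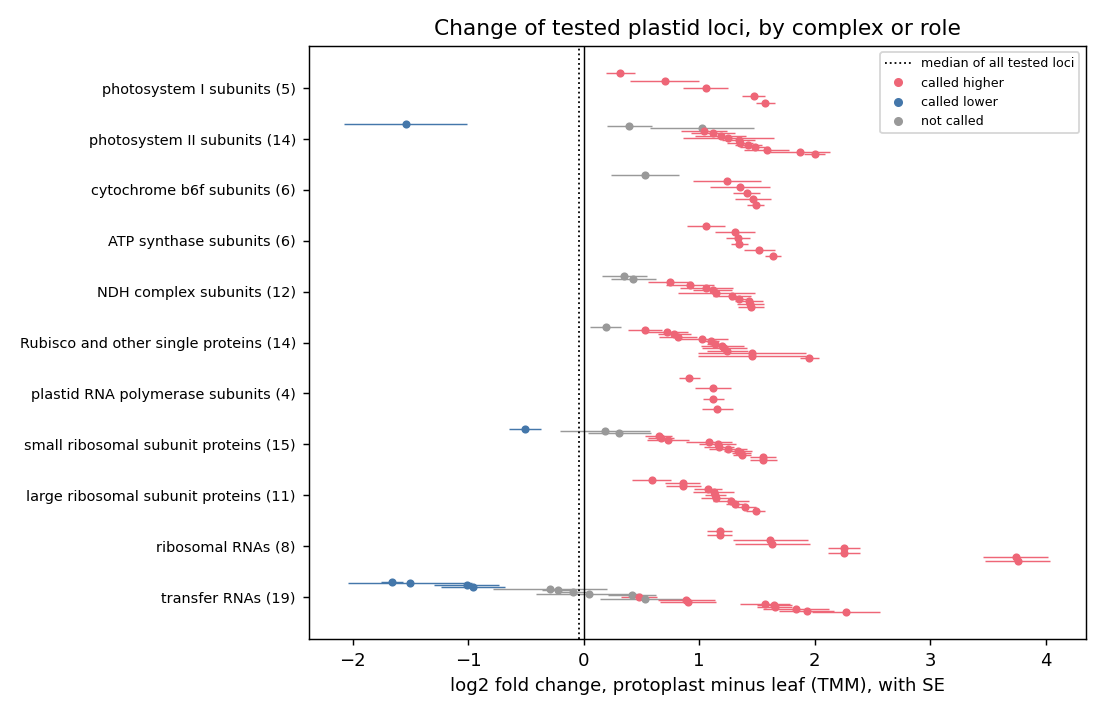
Log2 fold change of each tested plastid locus, protoplast minus leaf with TMM scaling (x axis, bars show the SE), grouped by complex or role with the number tested in brackets. Protein-coding groups centre between 1.06 and 1.38, ribosomal RNAs reach 3.76, and transfer RNAs spread from -1.66 to 2.27; with library size only the plastid median falls to 0.36 and relative to the plastid protein-coding counts it is -0.16.

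All 8 ribosomal RNA loci were called higher under 4 scalings, namely TMM, RLE, upper quartile and library size, and 4 of the 8 relative to the plastid protein-coding counts. ATCG00950 and its copy ATCG01180 alone took 57.3% and 60.3% of the plastid counts in leaf and 53.2% and 54.8% in protoplasts. ATCG00950 was at 8537 and 8019 CPM in leaf and 15669 and 21785 in protoplasts. Protoplast replicate 2 was the highest by far, and the log2 fold change was 1.18 ± 0.11 (edgeR, adjusted p = 6.4e-07), or -0.17 relative to the plastid protein-coding counts.

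ATCG00920 had a larger log2 fold change than ATCG00950, a difference that was not itself tested. It read 575 and 707 CPM in leaf and 2515 and 3621 in protoplasts, with no overlap. The log2 fold change was 2.26 ± 0.14 (edgeR, adjusted p = 9.39e-09) and 0.88 ± 0.31 relative to the plastid protein-coding counts (edgeR, adjusted p = 0.00557). ATCG00970 was counted only 16 and 18 times in the leaf libraries against 121 and 150 times in those of protoplasts, which put the leaf libraries level and both protoplast libraries far above. Its log2 fold change of 3.76 ± 0.28 (edgeR, adjusted p = 7.07e-08) was the largest of all tested plastid loci, and it was 2.96 with library size only and 2.42 ± 0.41 relative to the plastid protein-coding counts.

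Transfer RNA loci behaved unevenly. Of 19 tested, 9 were called higher and 4 lower with TMM, with a median of 0.48, against 6 and 6 with library size only and 1 and 10 relative to the plastid protein-coding counts. ATCG00400 held more counts than any other of these loci, 7865 and 7032 in the leaf libraries against 1381 and 1387 in the protoplast libraries. Both protoplast libraries were far below both leaf libraries and nearly equal to each other. Its log2 fold change of -1.66 ± 0.09 (edgeR, adjusted p = 4.02e-09) was the lowest of the tested plastid loci, and it was -2.46 with library size only and -2.99 ± 0.34 relative to the plastid protein-coding counts. ATCG00620, ATCG00200 and ATCG00370 were also called lower with TMM, at -1.01 ± 0.28, -0.96 ± 0.27 and -1.51 ± 0.54. They were called lower under all 5 scalings, which the shifts of the scalings made likely, but DESeq2 called none of these (adjusted p = 0.147, 0.0687 and 0.153). With 1 library left out (edgeR), ATCG00620 lost its call without protoplast replicate 1 (adjusted p = 0.0733) and ATCG00200 without protoplast replicate 2 (adjusted p = 0.0543). ATCG00370 lost it without either protoplast library or without leaf replicate 1 (edgeR, adjusted p = 0.0787 to 0.221). ATCG00400 was called lower in each of these fits and with DESeq2. ATCG00410, counted 16 and 24 times in the leaf libraries against 55 and 59 times in the others, was called higher at 2.27 ± 0.29 (edgeR, adjusted p = 1.27e-05) and stayed so under all 5. Mature transfer RNAs are short and lack long poly(A) tails.

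Loci read as one transcription unit had similar changes in some units and not in others. ATCG00470 and ATCG00480 differed little, at 1.33 and 1.35. The 3 loci from ATCG00420 to ATCG00440 lay between 1.28 and 1.43. The 5 loci listed for the unit from ATCG00680 to ATCG00730 lay between 1.04 and 1.47. ATCG00700, at -1.54, lies within these numbers but was not listed in that unit. The ribosomal protein unit from ATCG00740 to ATCG00840 was counted with ATCG01300 and ATCG01310, copies that lie in the other inverted repeat and outside this unit. With them, 13 of 13 loci were called higher with TMM, from 0.65 to 1.40, the latter at ATCG01310. Library size only gave 9 called higher and, relative to the plastid protein-coding counts, 0 were higher and 1 lower. The copies share reads, so the 13 are not independent. The 7 loci from ATCG01050 to ATCG01110 had a median of 0.75 and a range of 0.35 to 1.15 with TMM, and 5 were called higher. Scaling by library size gave 0 calls higher and 1 lower there, with a median of -0.06, and relative to the plastid protein-coding counts 0 and 2. Differences between units were not tested. The unit of ATCG00270, ATCG00280 and ATCG00300 was the most uneven by range, with values of 1.34, 1.59 and 0.40, of which the last was not called. These are TMM values, and with library size only ATCG00300 was called lower; relative to the plastid protein-coding counts the same loci of that last unit were at 0.02, 0.26 and -0.91.

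The inverted-repeat copies shared their counts almost evenly. Of 18 pairs listed, 17 had both rows and 4 were identical in all 4 libraries. In 15 pairs the copies differed by at most 2.15% of their mean in any library. The exceptions were ATCG00830 and ATCG01310, at up to 38.4%, and ATCG00940 and ATCG01190, at up to 35.3%. All 14 pairs with both copies tested had the same call in each copy. Their log2 fold changes lay within 0.09 of each other except for ATCG00940 and ATCG01190, at 1.57 ± 0.22 and 1.93 ± 0.24. Reads from such copies cannot be assigned to one of them, so the pairs are not independent. Summing the copies gave 80 of 100 tested plastid loci called higher and 6 lower with TMM, and a median of 1.14. Over all 20186 loci tested in that fit, 8030 were called higher and 8221 lower.

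Nuclear genes that serve the plastid had smaller median changes. Of 63 listed, 49 were called higher and 4 lower with TMM, but with library size only 4 were called higher and 44 lower, and relative to the plastid protein-coding counts 0 higher and 45 lower (edgeR, adjusted p under 0.05). Over all tested loci the shares were 39.8% higher and 40.7% lower with TMM, 21.4% and 69.6% with library size only, and 14.1% and 71.6% relative to the plastid protein-coding counts. Under the last 2 scalings the lower calls of the listed genes were thus about as frequent as over all loci, and their higher calls were less frequent. Among 30 nuclear-encoded subunits of the photosystems, cytochrome b6f, ATP synthase and Rubisco, 27 were called higher and 1 lower with TMM, with a median of 0.59, against 2 and 21 with library size only. PETC, the Rieske protein of cytochrome b6f, went from 770.3 and 857 CPM in leaf to 1749 and 1684 in protoplasts. The groups did not overlap, and it rose by 1.08 ± 0.06 (edgeR, adjusted p = 2.21e-09). ATPD, the delta subunit of the plastid ATP synthase, was called lower at -0.23 ± 0.07 (edgeR, adjusted p = 0.00793).

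Of 8 sigma factors and phage-type polymerases, 5 were called higher and 1 lower with TMM, with a median of 0.40, and 0 and 7 with library size only. Over all tested loci, 39.8% were called higher and 40.7% lower with TMM, and 21.4% and 69.6% with library size only. SIG2, a sigma factor of the plastid polymerase, was at 49.4 and 53.6 CPM in leaf and 87.1 and 83.3 in protoplasts, a rise of 0.73 ± 0.06 with TMM (edgeR, adjusted p = 1.31e-07). AT5G15700 fell by 0.49 ± 0.16 on the same scale. Among 12 proteins that associate with the plastid polymerase, 6 were called higher and 1 lower with TMM, with a median of 0.25, and 0 and 9 with library size only. FLN1 had the largest change at 0.73 ± 0.10 and PTAC2 the smallest at -0.22 ± 0.06. Of 13 genes of plastid RNA processing, binding and decay, 11 were called higher and 1 lower with TMM, with a median of 0.58, and 2 and 7 with library size only. CSP41A, an RNA-binding protein with endonuclease activity, went from 422 ± 27 to 875 ± 20 CPM (SD, n = 2), a rise of 1.05 ± 0.05 (edgeR, adjusted p = 1.76e-09). CRR2, a pentatricopeptide repeat protein of plastid RNA processing, fell by 0.93 ± 0.11 (edgeR, adjusted p = 6.8e-06).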

How the data were processed

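Poly(A) RNA-seq libraries of leaf (2) and leaf protoplasts (2) were compared. The deposited file holds whole-number counts per locus without normalization, and each row sums to at least 2. The submitters' processing notes list STAR and DESeq, with no version of either. Build, counting tool and use of strand are each "not given in the sources used here", so overlapping genes cannot be told apart and no coordinates or sequences are printed. The library kit was directional, per the labels' protocols. The reference annotation lists 129 plastid genes, of which 6 pairs overlap.

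The counts of all 20200 loci that passed filterByExpr entered 1 quasi-likelihood fit with an F test (R 4.3.3, edgeR 4.0.16), with TMM factors, no term but group, Benjamini-Hochberg adjustment and a threshold of 0.05. Positive log2 fold changes mean higher in protoplasts. CPM values use TMM-scaled library sizes and are not corrected for gene length, so levels of different genes are not compared; counts of a group's loci are shares of a library. The common biological coefficient of variation was 0.0486. Relative to the plastid protein-coding counts the standard errors were wider than with TMM (0.30 against 0.08 for ATCG00480), and the cause was not tested. The fit shares its spread over all tested loci, so these errors are not those of the plastid loci alone. Every count of calls under that scaling carries this limit.

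Members and lists were chosen with earlier results of these data known. From each plastid list the locus with the highest mean CPM and those with the largest and smallest log2 fold change are given in full, and from each nuclear list those with the largest and smallest change. Of 63 nuclear genes, 41 carry the listed symbol in the reference, 19 another symbol of the same gene and 3 none. Alternatives were RLE, upper-quartile, library size and plastid protein-coding scaling, no filter, DESeq2 1.42.0, limma-voom 3.58.1, a replicate block, summed inverted-repeat copies, and leaving out each library. Counting 1 copy per duplicated pair in the share was added after seeing the data. Replicate numbers are shared between groups in the labels. The edgeR fit was tested on simulated counts with known changes at a small part of the loci. Most loci were unchanged there, unlike in these data, so that test does not bear on the scaling.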

Additional observations from a re-analysis of the deposited data

How the results depend on the processing

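Plastid counts and medians held their direction under RLE, no filter, DESeq2, limma-voom, summed copies and each left-out library, with 80 to 98 loci called higher. Under library size only, 59 plastid loci were called higher and 12 lower with a median of 0.36, and 4 nuclear genes higher and 44 lower (all tested loci 21.4% and 69.6%). Scaled to plastid protein-coding counts, 6 plastid loci were called higher and 24 lower with a median of -0.16, and 0 nuclear genes higher and 45 lower (all tested loci 14.1% and 71.6%). Upper-quartile factors gave 12 of the 63 nuclear genes called lower, where 11047 of all 20200 tested loci were called lower. DESeq2 gave 2 plastid loci and 2 nuclear genes called lower, where 6795 of all 20200 tested loci were called lower. The cause was not tested. Leaving out 1 library at a time gave 83 to 98 plastid loci called higher, 2 to 9 lower (2 without protoplast replicate 1), medians of 0.94 to 1.34, 48 nuclear genes called higher in each case and 3 lower, and share differences of 0.771 to 2.23 points (the lowest without protoplast replicate 2). The lone library of a group is then assumed to vary like the other group. Without ribosomal and transfer RNA loci the share difference was 0.617 points. Of 364 comparisons over 28 named loci, 317 kept direction and call, 23 lost the call, 3 gained it and 21 changed direction; apart from the scalings, 239 of 252 were unchanged. Direction changed with upper-quartile factors for ATCG00630 (-0.0079) and ATCG00040 (-0.14), and without leaf replicate 2 for ATCG00040 (-0.047, against 0.46 without leaf replicate 1). It changed with library size only for ATCG00630 (-0.49), ATCG00210 (-0.28), ATCG01050 (-0.45), ATCG01130 (-0.022), ATCG00040 (-0.61) and ATCG00640 (-0.21). Relative to the plastid protein-coding counts it changed for ATCG00630 (-0.998), ATCG00220 (-0.14), ATCG00210 (-0.78), ATCG00150 (-0.26), ATCG01050 (-0.97), ATCG01130 (-0.55), ATCG00040 (-1.12), ATCG00740 (-0.20), ATCG00180 (-0.16), ATCG00190 (-0.40), ATCG00640 (-0.72) and ATCG00950 (-0.17). The call of ATCG00630 was also lost with no filter (0.29), DESeq2 (0.36), limma-voom (0.32), and without leaf replicate 2 or protoplast replicate 2. The replicate block gave 93 plastid loci called higher, 6 lower and a median of 1.16 (all 20200 tested loci 7782 higher and 7868 lower). Same-numbered libraries were not shown to be paired, since their deviations correlated at -0.079 over all loci. Loci with few counts, such as ATCG00700 and ATCG00370, limit how small a change could be detected.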

Other observations

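The mitochondrial loci, 123 in the table, held 0.0403% and 0.0389% of all counts in the leaf libraries against 0.0243% and 0.0276% in those of protoplasts, a lower share in both protoplast libraries. Of 62 tested, 23 were called higher and 11 lower with TMM and a median log2 fold change of 0.28, while with library size only 8 were called higher and 32 lower with a median of -0.52. Over all tested loci, 39.8% were called higher and 40.7% lower with TMM (median -0.04), and 21.4% and 69.6% with library size only (median -0.85). The higher calls with TMM were thus about as frequent as over all loci, and the lower calls were less frequent.

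Among plastid loci left untested for few counts, ATCG01030 was counted 12 and 10 times in the leaf libraries against 2 and 4 times in the others, and ATCG00460 was counted 8 and 0 times against 5 and 9 times; both were picked after their values were seen. The chi-square per degree of freedom between replicates was 124 for the plastid loci of leaf and 80.2 for those of protoplasts. Over all loci it was 5.20 and 10.4. The measure grows with counts at an equal relative spread, and some plastid loci have very many, such as ATCG00950 at 475725 and 462715 in leaf. Both copies of duplicated pairs also entered. The values therefore do not show which set of loci was noisier.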
